A study of Mus musculus with 10 samples.

Results

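The CDK inhibitor genes Cdkn1a, Cdkn1b, Cdkn2a, Cdkn2b and Cdkn2c and the p53 genes Trp53, Mdm2, Ccng1 and Gdf15 were followed after loss of Arid1a in the mouse prostate. These 9 genes were taken by symbol from the 48897 rows of each expression table. RNA-seq covered 10 samples in 4 groups. From the prostates of 3-month-old C57BL/6 mice, EpCAM+ CD45- epithelial cells were isolated by sorting, giving 3 control libraries, whose genotype names no Arid1a deletion, and 3 libraries labelled Arid1a KO, whose genotype includes Arid1aPC-/-, a deletion made in the prostate epithelium by Cre under the Probasin promoter. All 6 mice were genetically engineered, so the controls were not wild type. Myc-CaP, a cell line from a prostate tumour of a Myc transgenic FVB mouse, gave 2 libraries with an empty vector (EV) and 2 labelled Arid1a KO, made with a lentiviral guide RNA. The sources do not say whether the knockout line was 1 clone or a pool, or whether its libraries came from separate cultures, so p-values there may measure technical spread only. The comparison asked how each of the 9 genes stood with and without Arid1a in each system.

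The libraries set some limits on every result that follows. Arid1a itself was not reduced in the epithelium libraries labelled Arid1a KO, at 31.06, 28.82 and 30.82 RPKM against 27.84, 21.88 and 26.52 RPKM in the controls. All 3 labelled libraries lay above all 3 controls, without passing an adjusted p of 0.05 (log2 fold change 0.25 ± 0.094 SE, adjusted p = 0.054, limma). In Myc-CaP, Arid1a fell from 60.47 and 60.98 TPM to 39.51 and 40.33 TPM (log2 fold change -0.59 ± 0.058 SE, adjusted p = 0.0102, limma). RPKM divides the reads of a gene by gene length and library depth, and TPM scales reads per length to a common sum. The reads behind the RPKM values were estimated at 28800000 to 36300000 per library. In the sorted epithelium, markers of other cells were present and many moved with the genotype label. Genes counted as higher or lower passed an adjusted p under 0.05 in limma. Over all genes tested in the epithelium, 27.5% were higher and 29.6% lower, so counts near those shares do not set a list apart. The summed RPKM of 7 macrophage markers ran from 2274 to 2664 in the controls and from 4063 to 4763 in the libraries labelled Arid1a KO, with all 7 called higher. B cell markers summed to 144.3 to 160.1 RPKM against 462.4 to 810.9 RPKM, with 5 of 6 higher. Among the remaining immune lists, 4 of 5 leukocyte markers (711.9 to 745.8 against 798.2 to 858.6 RPKM), 3 of 6 neutrophil markers, or 5 without labelled library C (337.2 to 474.6 against 383.3 to 631.4 RPKM) and 3 of 6 T cell markers (24.5 to 28.93 against 32.4 to 37.05 RPKM) were higher, and 1 leukocyte marker was lower. All 7 seminal vesicle markers fell, from sums of 19410 to 21910 RPKM to sums of 647.3 to 1631 RPKM. The fibroblast list had 2 of 5 genes lower, the smooth muscle list 3 of 4 lower and 1 higher, the endothelial list 1 of 4 higher (2 without labelled library C), and the 6 epithelial markers 2 higher and 2 lower. Of the epithelial markers, the basal keratins were the higher ones, Krt5 at 301.6 ± 41.8 against 762.2 ± 76.0 RPKM and Krt14 at 146.0 ± 30.2 against 798.6 ± 104.6 RPKM, while Epcam (304.0 ± 40.9 against 200.6 ± 21.5 RPKM) and the luminal keratin Krt18 (577.2 ± 63.7 against 444.1 ± 9.36 RPKM) were the lower ones. No marker list had a member at 0 in every epithelium library. In Myc-CaP, Epcam and Cdh1, which define epithelium, were below 0.4 TPM in every library. The keratins were low with EV and less so in the knockout: Krt8 stood at 1.074 and 0.79 TPM against 40.28 and 38.84 TPM, Krt14 at 0.2651 and 0.4522 against 0.7737 and 6.041 TPM, and Krt18 and Krt5 listed at 0 in both EV libraries against 0.4321 and 0.6576 TPM and 0 and 1.982 TPM. The Myc-CaP libraries numbered 2 stood apart in stromal transcripts. Fibroblast markers summed to 7.075 and 37.31 TPM in EV libraries 1 and 2 and to 5.894 and 16.49 TPM in knockout libraries 1 and 2, and smooth muscle markers to 1.241 and 10.07 TPM and to 1.851 and 6.08 TPM. In bulk RNA, fewer cells of a type and less RNA per cell cannot be told apart.

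Cyclin-dependent kinase inhibitors stop the cell cycle by blocking the kinases that phosphorylate the retinoblastoma protein. The Cip/Kip inhibitors p21 (Cdkn1a) and p27 (Cdkn1b) bind several cyclin-kinase pairs, whereas the INK4 inhibitors p16 (Cdkn2a), p15 (Cdkn2b) and p18 (Cdkn2c) bind Cdk4 and Cdk6. Cdkn2a also encodes Arf, which restrains Mdm2, the ligase that degrades p53, and p53 in turn switches on Cdkn1a, Mdm2, Ccng1 and Gdf15. In the mouse prostate, p53 and p27 are both known to restrain tumour growth.

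Sequence upstream of the transcription start was printed for the 3 p53 targets that rose in the epithelium, because p53 acts on such genes through a 10-base degenerate motif, the p53 half-site. The RefSeq promoter windows of GRCm38.p6 run from 250 bases before to 50 bases after a start, and those of all 9 genes were searched on both strands. The half-site occurred in 8.36% of all 32851 windows and in 4 of the 13 windows of the 9 genes, namely 1 window each of Cdkn1a, Mdm2, Ccng1 and Trp53. A pair of half-sites no more than 13 bases apart occurred in 0.0731% of windows, and of the 9 genes only Cdkn1a had one, with 12 bases between. Capitals mark the half-sites, which are matches of letters and not shown to be bound. Sites farther upstream or deeper within the genes were not searched, so the sites that p53 uses may lie outside these windows. Whether the matches bear on the rises was not tested. The stretches are chr17:29090729-29090943 on the plus strand for Cdkn1a, chr10:117710809-117711008 on the minus strand for Mdm2 and chr11:40755337-40755536 on the minus strand for Ccng1, each written 5′ to 3′ on the strand of the gene.
Cdkn1a: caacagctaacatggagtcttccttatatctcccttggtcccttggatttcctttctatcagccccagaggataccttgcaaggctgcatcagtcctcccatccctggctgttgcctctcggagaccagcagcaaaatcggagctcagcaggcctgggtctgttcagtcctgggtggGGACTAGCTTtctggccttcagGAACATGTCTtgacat
Mdm2: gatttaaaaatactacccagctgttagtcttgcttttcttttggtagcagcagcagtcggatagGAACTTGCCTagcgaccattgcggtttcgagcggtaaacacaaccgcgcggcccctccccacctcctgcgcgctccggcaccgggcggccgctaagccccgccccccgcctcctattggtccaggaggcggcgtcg
Ccng1: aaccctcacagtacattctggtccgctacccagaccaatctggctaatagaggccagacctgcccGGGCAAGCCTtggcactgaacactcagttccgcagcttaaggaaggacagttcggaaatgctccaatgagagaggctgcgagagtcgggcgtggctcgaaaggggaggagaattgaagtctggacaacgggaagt
In these stretches the matches lay at -73 to -64 and -51 to -42 from the Cdkn1a start, at -186 to -177 in Mdm2 and at -185 to -176 in Ccng1. The match in Trp53 lay at -75 to -66, and its window also held the NF-kB motif GGGANNTTCC across the start, at -5 to 5, a motif found on either strand in 1.47% of windows. Of 27 other p53 target genes with a window, 9 held a half-site, in 10 of their 34 windows.

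In the sorted epithelium, the libraries labelled Arid1a KO had higher levels of 5 of the 9 genes, and none was lower. Cdkn1a, Cdkn2a and Mdm2 rose 1.95-fold to 2.18-fold, Cdkn2b rose 1.69-fold and Ccng1 1.42-fold, whereas Cdkn1b, Cdkn2c, Trp53 and Gdf15 did not pass the test. A gene was called where limma on log2(RPKM + 1) gave an adjusted p under 0.05 over all 16275 genes tested. By that rule 57.1% of all genes tested were called, 27.5% higher and 29.6% lower, so the share of the 9 genes called in either direction, 55.6%, lay near that of all genes. Their median log2 fold change was 0.49, against -0.028 over all genes tested.

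**Figure D1:**
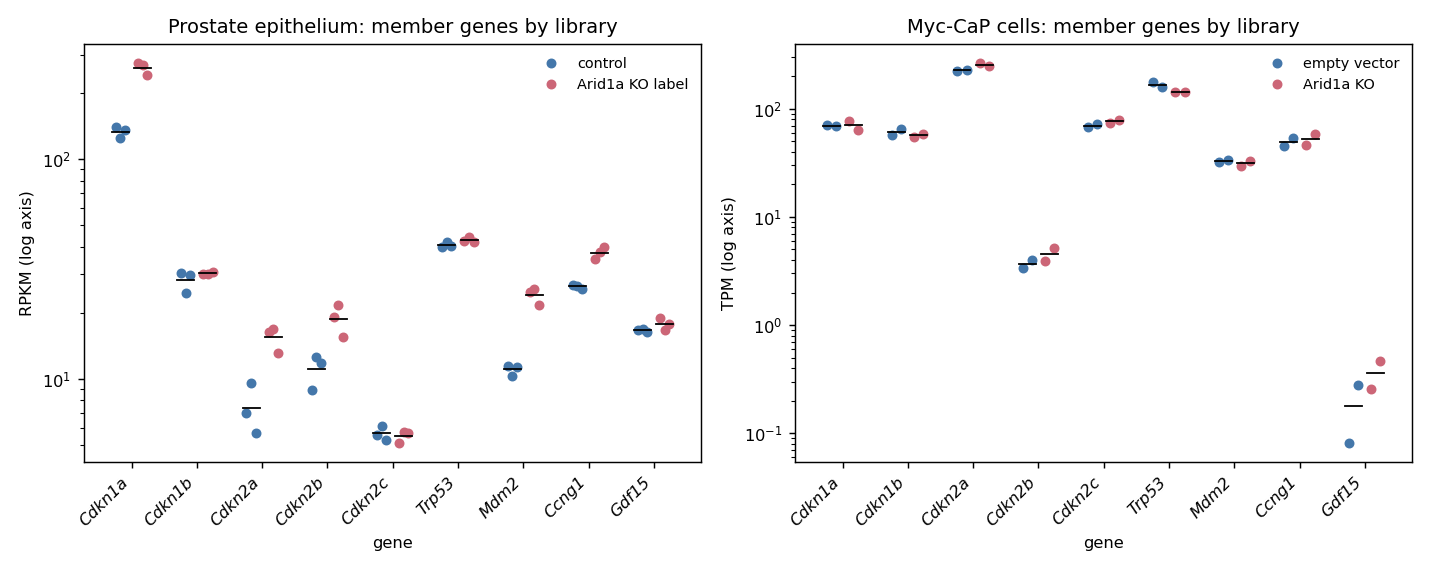
Values of the 9 genes in every library, in RPKM for the sorted epithelium (left) and in TPM for Myc-CaP (right), both on log axes. Each point is 1 library and each bar the group mean. In the epithelium the 3 libraries labelled Arid1a KO sit above the 3 controls for Cdkn1a (241.9 to 274.8 against 125.3 to 140.1 RPKM), Cdkn2a, Cdkn2b, Mdm2 and Ccng1, while in Myc-CaP the groups lie close together and Gdf15 is under 0.5 TPM.

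Cdkn1a (chr17:29090976-29100727, GRCm38), which encodes p21, was the most abundant of the 9 genes per length in the epithelium. It stood at 140.1, 125.3 and 136.5 RPKM in controls A, B and C and at 274.8, 268.0 and 241.9 RPKM in libraries A, B and C labelled Arid1a KO. All 3 labelled libraries lay far above all 3 controls. The mean of 133.9 ± 7.72 RPKM in the controls became 261.6 ± 17.4 RPKM (SD, n = 3 per group), and the log2 fold change was 0.96 ± 0.080 SE (95% confidence interval 0.77 to 1.15) with an adjusted p of 8.59e-05 in limma. The control level of Cdkn1a was above that of 97.1% of the genes tested and the labelled level above 98.6%. An unconfirmed transcript annotated on the opposite strand, AC167363.2, overlaps Cdkn1a, and the study's methods describe strand-specific counting.

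Cdkn1b (chr6:134920401-134925513), which encodes p27, did not pass the test. Its values were 30.23, 24.64 and 29.61 RPKM in the controls and 30.11, 30.17 and 30.55 RPKM in the libraries labelled Arid1a KO. Control B was the lowest and the other 5 libraries lay within a narrow band. The log2 fold change of 0.11 ± 0.084 SE had an interval of -0.09 to 0.30, so a change of the size seen in Cdkn1a lay outside it (adjusted p = 0.306, limma).

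The INK4 genes divided by locus. Cdkn2a and Cdkn2b, which lie next to each other on chromosome 4, both rose, whereas Cdkn2c (chr4:109660876-109667189), which lies apart from them on the same chromosome, did not pass. Cdkn2a (chr4:89274471-89294653) stood at 6.955, 9.574 and 5.676 RPKM in the controls and at 16.34, 16.87 and 13.17 RPKM in the libraries labelled Arid1a KO. The groups did not overlap, although control B was well above the other controls. The mean went from 7.40 ± 1.99 to 15.5 ± 1.999 RPKM, and the log2 fold change was 0.99 ± 0.17 SE (0.59 to 1.39) with an adjusted p of 0.00209 in limma, on an estimated 208 to 588 reads per library.

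Cdkn2a has a pair of promoters, one for the Arf transcript and one for the p16 transcript, and the gene-level value pools both, so these data do not divide the rise between them. A stretch before each start is shown to place these promoters, at chr4:89294660-89294759 for Arf and at chr4:89282233-89282332 for p16, both on the minus strand of GRCm38.p6. Neither holds a p53 half-site, and so neither has capitals.
Cdkn2a, Arf start: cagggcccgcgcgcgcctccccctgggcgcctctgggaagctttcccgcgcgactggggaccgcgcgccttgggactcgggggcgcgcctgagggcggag
Cdkn2a, p16 start: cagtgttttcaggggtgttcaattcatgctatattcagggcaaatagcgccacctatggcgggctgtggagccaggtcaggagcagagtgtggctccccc
The full Arf window was 77.0% G and C with 45 CpG, more than 98.1% of windows, and the p16 window 60.3% with 12 CpG. The medians over all windows were 52.7% and 7 CpG.

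Cdkn2b (chr4:89306299-89311039), which encodes p15, was measured at 8.92, 12.57 and 11.86 RPKM in the controls and at 19.13, 21.78 and 15.43 RPKM in the libraries labelled Arid1a KO. Every labelled library was above every control, with library C the lowest of the labelled ones for both Cdkn2a and Cdkn2b. The mean rose from 11.1 ± 1.94 to 18.8 ± 3.19 RPKM (log2 fold change 0.71 ± 0.15 SE, 0.35 to 1.06, adjusted p = 0.00586, limma). Other genes within 500000 bases of the Cdkn2a and Cdkn2b locus moved the same way, of which Ifne and Gm12602 were named after their values were seen. Mtap, the neighbouring methylthioadenosine phosphorylase gene (chr4:89137122-89181081), rose from 12.2 ± 0.932 to 24.6 ± 1.25 RPKM (log2 fold change 0.96, adjusted p = 6.51e-05), Ifne, an interferon gene, from 0.744 ± 0.158 to 2.37 ± 0.250 RPKM (adjusted p = 0.000263), and the transcript Gm12602 from 0.523 ± 0.134 to 1.74 ± 0.243 RPKM (adjusted p = 0.000545). The rest of the genes in that stretch were not tested in the epithelium because they averaged under 0.5 RPKM or were not found in the table by name.

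Cdkn2c, which encodes p18, gave 5.575, 6.086 and 5.282 RPKM in the controls and 5.103, 5.735 and 5.687 RPKM in the libraries labelled Arid1a KO. The groups overlapped throughout. Its log2 fold change was -0.030 ± 0.080 SE (-0.22 to 0.16, adjusted p = 0.763, limma).

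Trp53 (chr11:69580359-69591873), the gene of p53 itself, was measured at 40.02, 42.16 and 40.17 RPKM in the controls and at 42.58, 44.44 and 42.17 RPKM in the libraries labelled Arid1a KO. Every labelled library was above every control, but the closest pair was 42.17 against 42.16 RPKM, and the log2 fold change of 0.077 ± 0.057 SE did not pass (-0.056 to 0.21, adjusted p = 0.278, limma). With Trp53, 6 of the 9 genes had groups that did not overlap, against 66.7% of all genes tested.

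Among the p53 targets and regulators, Mdm2 and Ccng1 rose and Gdf15 did not pass. Mdm2 (chr10:117688875-117710758), the p53 ligase and itself a p53 target, went from 11.45, 10.34 and 11.3 RPKM in the controls to 24.8, 25.65 and 21.74 RPKM. All 3 labelled libraries were far above the controls. The mean of Mdm2 rose from 11.03 ± 0.606 to 24.1 ± 2.06 RPKM, with an interval that overlapped those of Cdkn1a and Cdkn2a (log2 fold change 1.06 ± 0.080 SE, 0.87 to 1.24, adjusted p = 6.07e-05, limma). Ccng1 (chr11:40748552-40755311), the cyclin G1 gene, stood at 26.88, 26.6 and 25.75 RPKM in the controls and at 35.23, 37.72 and 39.71 RPKM in the libraries labelled Arid1a KO. The Ccng1 controls lay close together and below all labelled libraries, with a log2 fold change of 0.49 ± 0.064 SE (0.34 to 0.64, adjusted p = 0.000577, limma). Gdf15 (chr8:70629393-70632456), a secreted stress cytokine, gave 16.64, 16.94 and 16.38 RPKM in the controls and 18.95, 16.69 and 17.76 RPKM in the libraries labelled Arid1a KO. Labelled library B of Gdf15 fell within the control range, and the log2 fold change of 0.089 ± 0.065 SE did not pass (-0.064 to 0.24, adjusted p = 0.275, limma).

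The order of the levels changed with the label. In the controls it ran Cdkn1a, Trp53, Cdkn1b, Ccng1, Gdf15, Cdkn2b, Mdm2, Cdkn2a, Cdkn2c, and the ranges overlapped between Cdkn1b and Ccng1, between Cdkn2b and Mdm2 and between Cdkn2a and Cdkn2c. In the libraries labelled Arid1a KO, Ccng1 stood above Cdkn1b without overlap, and Mdm2 moved ahead of Cdkn2b and Gdf15, while Mdm2, Cdkn2b and Gdf15 each overlapped the next. Trp53 remained second and Cdkn2c lowest.

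The 5 calls depended little on scaling, unlike the 4 genes that did not pass. The RPKM values summed to 441646 to 473332 in the controls and to 397999 to 403031 in the libraries labelled Arid1a KO. Rescaling every library to the same sum took the median over all genes tested from -0.028 to 0.11 on the log2 scale, and the share of calls that were higher from 48.1% to 64.9%. Under it Cdkn1b (0.28, adjusted p = 0.0469), Trp53 (0.25, adjusted p = 0.0075) and Gdf15 (0.26, adjusted p = 0.0139) were also called higher in limma, each by an amount that includes this shift.

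In Myc-CaP none of the 8 genes that could be tested passed, and Gdf15 averaged under the minimum of 0.5 TPM. Of all 13974 genes tested in that table by limma on log2(TPM + 1), 6.43% were called, 4.54% higher and 1.89% lower, and 2 of the 8 genes, Cdkn2a and Trp53, had an unadjusted p under 0.05. Their median log2 fold change was 0.037, against -0.014 over all genes tested. The groups did not overlap for Cdkn2a, Cdkn2c and Trp53, against 51.5% of all genes tested. With 2 libraries a group, the test rests on the variance shared across genes.

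**Figure D2:**
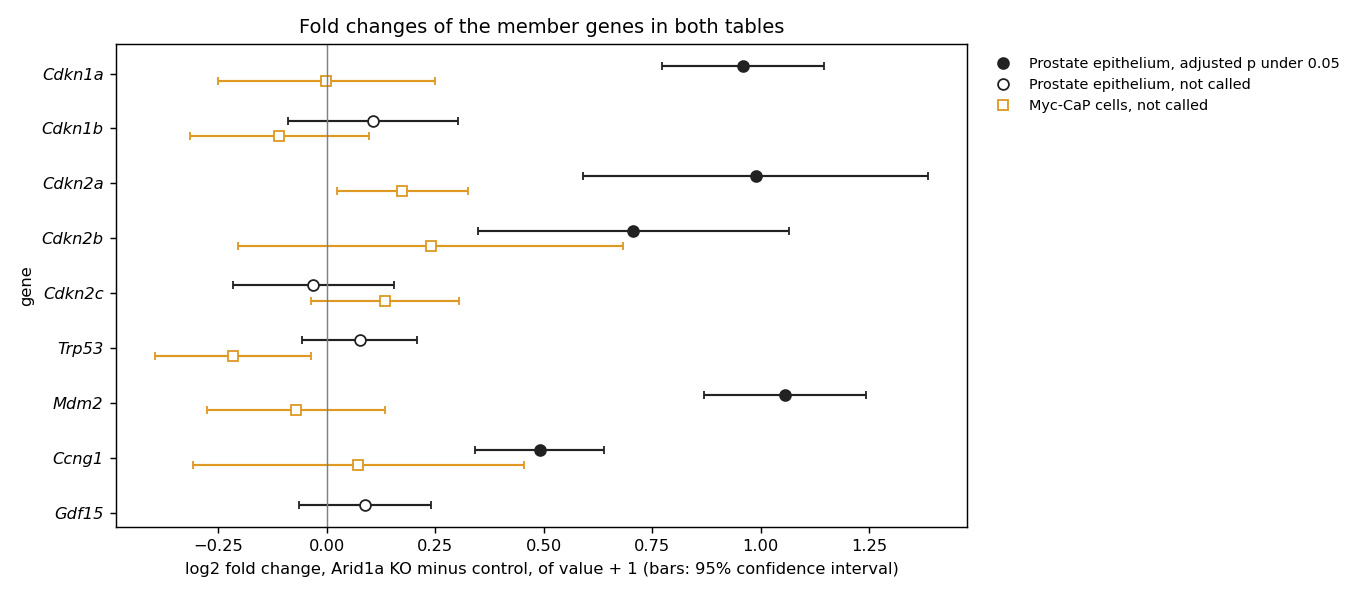
Log2 fold change of each gene, Arid1a KO minus control, on the log2(value + 1) scale with 95% confidence intervals, in the sorted epithelium (circles) and in Myc-CaP (squares). Filled symbols passed an adjusted p of 0.05 and open symbols did not. Filled circles run from 0.49 (Ccng1) to 1.06 (Mdm2), no square is filled, and Gdf15 has no square because it was not tested in Myc-CaP.

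Cdkn1a in Myc-CaP stood at 70.88 and 69.34 TPM with EV and at 76.6 and 64.15 TPM in the knockout. The knockout libraries lay on either side of both EV libraries, and the log2 fold change was -0.0002 ± 0.097 SE with an interval of -0.25 to 0.25 (adjusted p = 0.999, limma). That interval lay below the one of the epithelium, 0.77 to 1.15, but the tables were normalized separately and the difference between the systems was not tested. Cdkn1b was at 57.92 and 64.74 TPM with EV and 54.88 and 58.63 TPM in the knockout, overlapping, with a log2 fold change of -0.11 ± 0.080 SE (-0.32 to 0.098, adjusted p = 0.503, limma).

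Cdkn2a was the most abundant of the 9 genes per length in Myc-CaP, above 94.8% of genes tested with EV, whereas in the control epithelium it exceeded 55.2%. It gave 225.7 and 228.7 TPM with EV and 265.9 and 247.5 TPM in the knockout. Both knockout libraries were above both EV libraries by a margin that did not pass (log2 fold change 0.17 ± 0.058 SE, 0.024 to 0.33, adjusted p = 0.174, limma). Its neighbour Cdkn2b was low, at 3.355 and 4.002 TPM against 3.908 and 5.193 TPM, with overlapping groups (0.24 ± 0.17 SE, -0.20 to 0.68, adjusted p = 0.491, limma). Mtap, next to them, was at 100.5 and 120.5 TPM with EV and 99.51 and 114.6 TPM in the knockout, also overlapping. Cdkn2c gave 67.7 and 71.81 TPM with EV and 74.21 and 79.1 TPM in the knockout. Both knockout libraries were the higher ones, without passing (0.13 ± 0.066 SE, -0.036 to 0.30, adjusted p = 0.328, limma).

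Trp53 was second in Myc-CaP, at 176.5 and 158.4 TPM with EV and at 144.6 and 143.2 TPM in the knockout. Both knockout libraries were the lower ones, opposite in direction to the epithelium, and the log2 fold change of -0.22 ± 0.070 SE did not pass (-0.40 to -0.035, adjusted p = 0.165, limma). Mdm2 was at 32.37 and 33.43 TPM with EV and at 29.64 and 33.02 TPM in the knockout (-0.070 ± 0.080 SE, -0.28 to 0.14, adjusted p = 0.677, limma). Ccng1 varied more between libraries of 1 group than between groups, at 45.26 and 53.83 TPM against 45.9 and 58.88 TPM (0.074 ± 0.15 SE, -0.31 to 0.45, adjusted p = 0.827, limma). Gdf15 gave 0.08108 and 0.2766 TPM with EV and 0.2581 and 0.4677 TPM in the knockout, steps of 1, 3, 3 and 5 times the smallest value after allowing for relative depth, so these values may rest on a handful of reads and no fold is given. The order of the EV levels was Cdkn2a, Trp53, Cdkn1a, Cdkn2c, Cdkn1b, Ccng1, Mdm2, Cdkn2b, Gdf15, of which Cdkn1a and Cdkn2c overlapped.

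The other p53 target genes were read in the same way in the epithelium, where 27.5% of all genes tested were higher and 29.6% lower. Of 36 listed, 35 were tested, 16 were higher (45.7%) and 5 lower (14.3%). Their median log2 fold change was 0.16, against -0.028 for all genes tested. With the same sum in every library 21 were higher and 2 lower, and at a minimum mean of 5 RPKM 10 were higher. The largest rises were in Plk3, a stress kinase (56.6 ± 2.67 to 122.0 ± 10.6 RPKM, log2 fold change 1.09, adjusted p = 5.64e-05), Apaf1, the apoptosome scaffold (5.39 ± 0.684 to 11.4 ± 0.306 RPKM, 0.97, adjusted p = 0.000135), and Pmaip1, which encodes the cell death activator Noxa (34.6 ± 0.673 to 66.1 ± 7.07 RPKM, 0.91, adjusted p = 0.000119). Dcxr, a carbonyl reductase gene, and Rps27l, a ribosomal protein-like gene, fell by 0.71 and 0.53 on the log2 scale. Ikbip fell by 0.35, a call lost with the same sum in every library. Of all genes tested in Myc-CaP, 4.54% were higher and 1.89% lower. Among the listed p53 targets there, 3 of 32 tested (9.38%) were higher and none lower, with a median of -0.02 against -0.014. These were Ddit4, an inhibitor of mTOR signalling (24.8 ± 2.13 to 41.9 ± 2.02 TPM, 0.74), Sesn1, a sestrin (14.4 ± 0.570 to 24.4 ± 0.584 TPM, 0.72), and Aen, an exonuclease (82.5 ± 0.396 to 103.5 ± 0.495 TPM, 0.32), and all 3 calls were lost when any 1 library was left out. In the epithelium, Ddit4 (0.26, adjusted p = 0.0289) and Aen (0.47, adjusted p = 0.00236) were also called higher in limma. Sesn1 did not pass there (-0.058, adjusted p = 0.602, limma). Of the 13 Myc-CaP calls named in these lists, that of Spp1 alone held in every alternative.

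**Figure D3:**
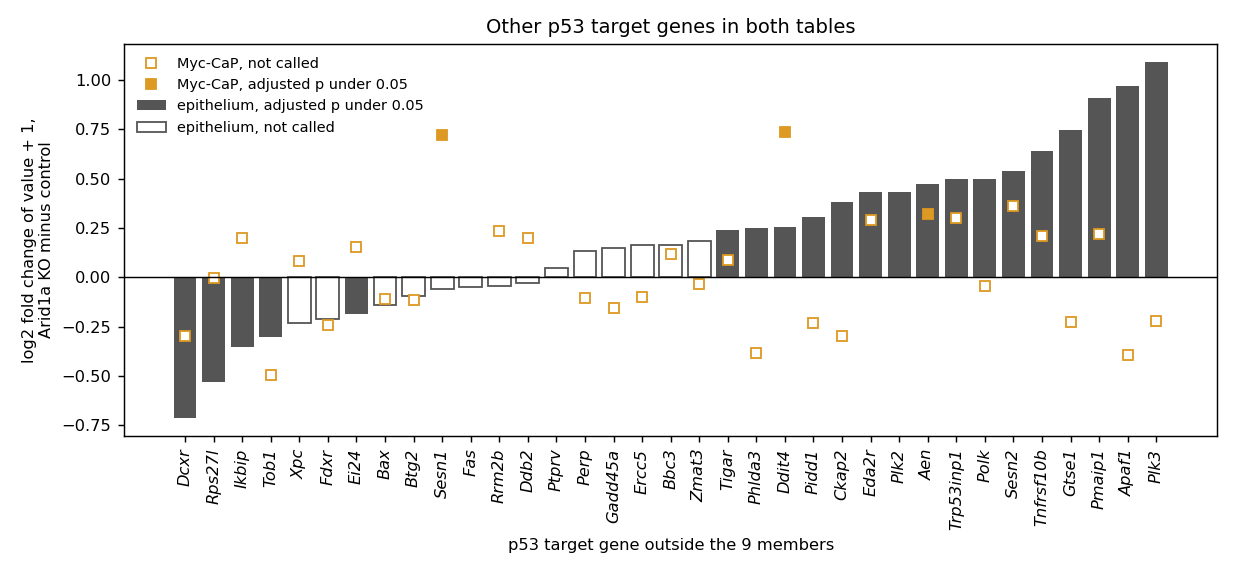
Log2 fold change, Arid1a KO minus control, on the log2(value + 1) scale of the 35 other p53 targets tested in the sorted epithelium (bars), ordered by that value, with Myc-CaP as squares. Filled bars and squares passed an adjusted p of 0.05, and bars run from -0.71 (Dcxr) to 1.09 (Plk3). Filled squares are those of Ddit4, Sesn1 and Aen.

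Regulators and relatives of p53 had 5 of 11 tested genes higher in the epithelium (45.5%) and none lower. Over all genes tested, 27.5% were higher and 29.6% lower. The list had a median of 0.20, and 8 of its genes were higher with the same sum. Ppm1d, a phosphatase acting on p53 (0.39, adjusted p = 0.0051), Mdm4, which binds and restrains p53 (9.30 ± 0.299 to 12.4 ± 0.520 RPKM, 0.38, adjusted p = 0.00171), and Hipk2, a p53 kinase (0.37, adjusted p = 0.0344), led these in limma, and the call of Hipk2 was lost without a filter on low values. Without labelled library A, B or C, 3 genes of the list were called higher, and Hipk2 was not among them. The relative Trp63, a basal cell factor, gave 5.20, 5.26 and 4.80 RPKM in the controls and 3.529, 4.0 and 4.994 RPKM in the libraries labelled Arid1a KO (-0.24, adjusted p = 0.0962, called lower without labelled library C), and Trp73 averaged under 0.5 RPKM. In Myc-CaP, Ppm1d was higher (0.39, adjusted p = 0.0277) and Chek2, a checkpoint kinase, lower (-0.48, adjusted p = 0.0475) of 10 tested. Mdm4 was at 27.95 and 32.34 TPM with EV and 25.46 and 31.06 TPM in the knockout.

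The retinoblastoma pathway, on which CDK inhibitors act, had 9 of 16 genes higher (56.2%) and 3 lower (18.8%) in the epithelium. The shares over all genes tested were 27.5% and 29.6%, and the median of the list was 0.28. With the same sum, 13 of the pathway were higher and 0 lower, and at a minimum mean of 5 RPKM 5 were higher. Ccnd2, a D-type cyclin, rose from 14.7 ± 2.35 to 34.3 ± 3.11 RPKM (1.18, adjusted p = 0.000203), its partner kinase Cdk6 rose by 0.78, and Rb1, the retinoblastoma gene, rose from 3.50 ± 0.554 to 6.67 ± 0.383 RPKM (0.78, adjusted p = 0.000643). Ccnd3, E2f5 and Cdk4 fell by 0.30, 0.29 and 0.29, calls that were lost with the same sum in every library. Without labelled library A, the calls of E2f5 and Cdk4 were lost, and that of E2f5 also without control A, control B or labelled library B. None of 15 tested passed in Myc-CaP, where Rb1 was at 7.35 and 8.21 TPM with EV and 7.18 and 8.51 TPM in the knockout. Of the remaining CDK inhibitors, Cdkn1c, which encodes p57, fell from 12.02 ± 0.926 to 3.36 ± 0.349 RPKM in the epithelium (-1.58 ± 0.089 SE, adjusted p = 1.91e-05), opposite to its relative Cdkn1a, and Cdkn2d, which encodes p19 of the INK4 family, did not pass (-0.15, adjusted p = 0.256). Neither passed in Myc-CaP. Genes for p27 turnover and transcription had 1 of 5 higher, Foxo3 (0.23, lost without control C), and 1 lower, Foxo4 (-0.21, lost with the same sum and without any 1 library but control B), in the epithelium, and none of 5 called in Myc-CaP.

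Regulators of the Ink4 locus, listed with the neighbour gene Mtap, moved in both directions in the epithelium. Of these 11 genes, 5 were higher (45.5%) and 5 lower (45.5%), against 27.5% and 29.6% of all genes tested. The median of the list was 0.012. Besides Mtap, the factors Ets2 (0.93) and Ets1 (0.70), which can activate Cdkn2a, rose. Tbx2 and Tbx3, T-box repressors of Cdkn2a, fell, Tbx2 from 22.9 ± 1.02 to 7.71 ± 0.279 RPKM (-1.46, adjusted p = 7.83e-06) and Tbx3 by 1.09, and the Polycomb gene Cbx7 fell by 0.78. Bmi1, the Polycomb repressor of this locus, was named after its values were seen and rose from 3.69 ± 0.228 to 5.29 ± 0.403 RPKM (0.42, adjusted p = 0.00335, limma). Whether any of these regulators bears on the level of Cdkn2a was not tested. In Myc-CaP, Ets1, Tbx2 and Tbx3 were under 0.5 TPM, and 1 of 8 tested genes passed, the Polycomb gene Cbx8 (-0.51, adjusted p = 0.0438).

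Senescence markers had 4 of 6 genes higher (66.7%) and 1 lower (16.7%) in the epithelium, against 27.5% and 29.6% of all genes tested. Their median was 0.56, and none of 6 was called in Myc-CaP. The list joins genes known to rise with genes known to fall in senescence, so its count and median give no direction in senescence. Lmnb1 and Glb1 both went against the way they are known to go. Lmnb1, the lamin B1 gene, whose loss marks senescence, rose from 42.8 ± 0.564 to 77.5 ± 9.71 RPKM (0.83, adjusted p = 0.000272), and Glb1, which encodes the senescence-associated beta-galactosidase, fell from 30.1 ± 1.49 to 20.8 ± 2.74 RPKM (-0.52, adjusted p = 0.00297). Bhlhe40, a transcription factor, rose by 0.94. In Myc-CaP, Lmnb1 was at 164.5 and 171.3 TPM with EV and at 140.3 and 149.3 TPM in the knockout, and Glb1 at 25.44 and 27.05 TPM against 30.26 and 29.99 TPM, neither passing.

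Proliferation genes were higher in the same epithelium libraries as Cdkn1a and Cdkn2a, 14 of 16 of them (87.5%), with 1 lower (6.25%). Over all genes tested there, 27.5% were higher and 29.6% lower, and the median of the list was 0.43. Mki67, the Ki-67 gene, rose from 4.502 ± 0.242 to 9.80 ± 0.321 RPKM (0.97, adjusted p = 4.66e-05), Mcm4, a subunit of the replicative helicase, by 0.91 and Ccnb1, the mitotic cyclin B1, by 0.80. The fall of the mitotic kinase Plk1 by 0.18 was lost in 9 of 15 alternatives. In Myc-CaP, 2 of 16 were lower and none higher, Plk1 (-0.30, adjusted p = 0.0341) and Ccnb1 (-0.29, adjusted p = 0.0404), and Mki67 stood at 179.6 and 201.3 TPM with EV and at 148.3 and 163.8 TPM in the knockout without passing.

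The senescence-associated secretory phenotype (SASP) had 16 of 28 tested genes higher (57.1%) and 5 lower (17.9%) in the epithelium, with a median of 0.77. Over all genes tested, 27.5% were higher and 29.6% lower. The study had singled out some SASP genes in these epithelium libraries, Cxcl2 and Il1a among them. The count of the list is therefore not independent evidence of direction. Spp1, the osteopontin gene, rose from 33.5 ± 0.561 to 487.3 ± 52.3 RPKM (3.82), Mmp12, the macrophage elastase, by 3.35 and the cytokine Il1a by 2.12, beside the macrophage markers whose sums were given above, and the part of those cells in these rises was not tested. Ccl20, Cxcl5 and Igfbp7 fell by 1.44, 0.57 and 0.53. In Myc-CaP, 4.54% of all genes tested were higher and 1.89% lower, and macrophage markers summed to between 0.8227 and 2.795 TPM in all libraries. There, 4 of 13 tested SASP genes were higher and none lower. They included Igfbp5, a growth factor binding protein gene (0.2921 and 0.7086 to 10.68 and 11.03 TPM, 3.00), Spp1 (468.0 and 478.8 to 1106 and 1165 TPM, 1.26, adjusted p = 0.00172) and Cxcl1 (0.69).

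The integrated stress response, which also induces Gdf15, went the other way from Mdm2 in the epithelium. Of its 6 genes, 5 were lower (83.3%) and none higher, against 29.6% and 27.5% of all genes tested. The median of the list was -0.39. Chac1, which degrades glutathione, fell from 13.5 ± 1.40 to 6.13 ± 0.745 RPKM (-1.02, adjusted p = 0.000198), Asns, asparagine synthetase, by 0.90 and Atf4, its central transcription factor, by 0.40. In Myc-CaP, Chac1 (0.78, adjusted p = 0.00601) and Asns (0.28, adjusted p = 0.0408) were higher and none was lower. Those Myc-CaP calls were lost when any 1 library was left out.

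**Figure D4:**
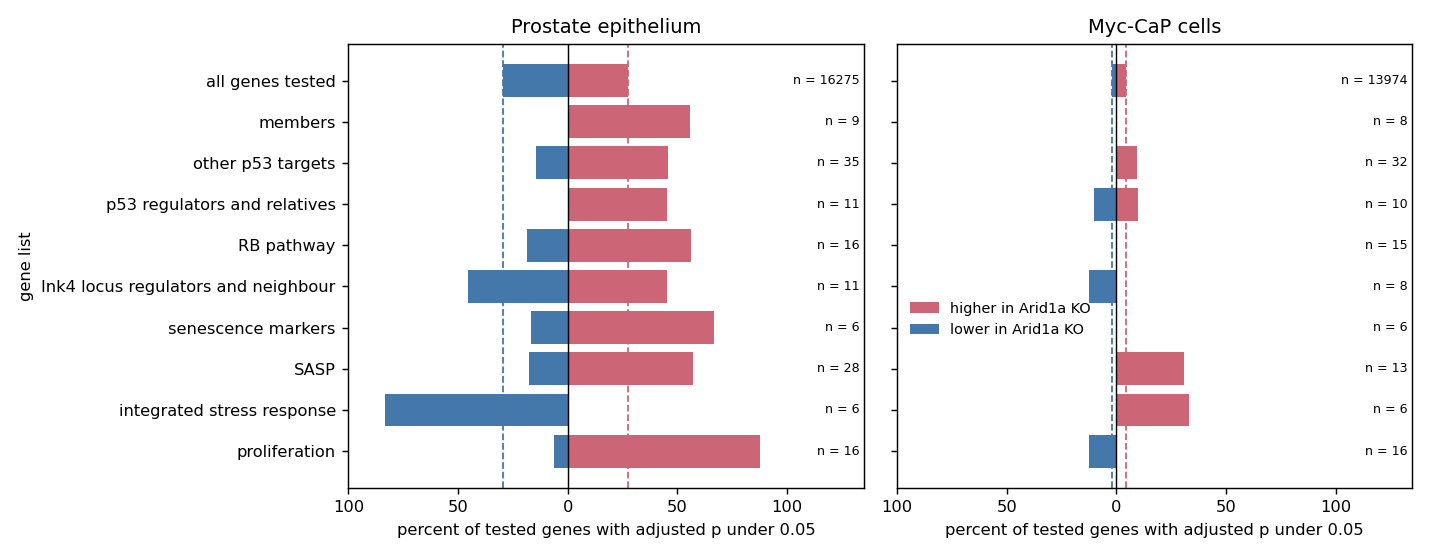
Percent of the tested genes of each list called higher (right of 0) or lower (left of 0) in Arid1a KO libraries of the sorted epithelium (left) and of Myc-CaP (right), at an adjusted p under 0.05. Dashed lines mark the shares over all genes tested, 27.5% higher and 29.6% lower in the epithelium and 4.54% and 1.89% in Myc-CaP, and members are the 9 genes described here, with 55.6% higher and none lower in the epithelium.

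Over the 10 libraries, each table centred on its own mean, the pattern of Cdkn1a was most like that of Ralgds (Pearson r = 0.996), Bicd2 (0.9927) and Gprc5a (0.9923) among 12122 genes tested in both tables. For Cdkn2a the closest were Ripk4 (0.984), Gsta4 (0.9747) and Vps18 (0.9741). The shift between the epithelium groups enters these correlations, so they describe that shift as well as the spread between libraries.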

How the data were processed

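RNA-seq of 10 libraries was analysed, with groups taken from the genotype field of the labels. The study's methods describe strand-specific alignment to GRCm38 with TopHat2 and counting per gene with HTSeq-count, whereas the submitters' processing notes name HISAT2, HTSeq and DESeq2 with mm10. The authors deposited the epithelium as RPKM and Myc-CaP as TPM, and the gene lengths used are not given in the sources used here. Neither unit is a count, and count models were not used. Whole reads were not recovered, since with GENCODE M21 lengths 17.2% to 21.2% of low values came out whole within 0.01 reads, and depth is therefore an estimate in RPKM and unknown in TPM. Columns of other samples numbered 0.

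Values were transformed to log2(value + 1), the mean had to reach 0.5 for a gene to be tested, and each table was fitted alone with limma 3.58.1 (lmFit, eBayes with a trend) in R 4.3.3. Fold changes on this scale understate the change of low genes. P-values were two-sided and adjusted by Benjamini-Hochberg over all genes tested, with calls under 0.05. The script was tested on simulated data. The 9 genes, the 20 other lists and their tests were chosen with earlier results of these data known. Of each list the text names at most 3 rises and 3 falls per table, those with the largest change among called genes whose groups did not overlap, and Arid1a, Trp63, Trp73, Mdm4, Mtap, Rb1, Lmnb1 and Mki67 whatever their values. Individual values of a few listed genes are left out of the text, although list counts include them. Other single marker genes, Bmi1, Ifne and Gm12602 were added after their values were seen. The epithelium values of Aen, Cbx8, Ddit4 and Sesn1 were added likewise. Same-lettered epithelium libraries did not deviate together (r = 0.0409, 0.00944 and -0.0573), so no pairing was used. Alternatives were other pseudocounts (0.1, 0.01), no filter or a minimum mean of 5, quantile, median and same-sum scaling, no trend, a replicate block and leaving out each library. Locations came from GENCODE M21 on GRCm38 and promoter windows from RefSeq on GRCm38.p6.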

Additional observations from a re-analysis of the deposited data

Results flagged for a closer look

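Of the 9 genes and the list genes named by size of change, 47 were tested in both tables. Among these 47, 13 moved one way in every epithelium library labelled Arid1a KO, relative to all controls. The same 13 moved the opposite way in every Myc-CaP knockout library, relative to both EV libraries. Arid1a, which is not counted in the 47, also did so, with log2 fold changes of 0.2482 and -0.5931. The difference between the systems was not tested, because the tables were normalized separately, and 19.2% of the 12122 genes tested in both tables did the same. Among the 9 genes of the report, Trp53 was the one concerned, with a log2 fold change of 0.0767 in the epithelium and -0.2152 in Myc-CaP, neither past the test in limma. Of the p53 targets, Plk3 (1.0911 and -0.2215) and Apaf1 (0.9681 and -0.3915) were higher in the epithelium and lower in Myc-CaP. The proliferation genes Mki67 (0.9742 and -0.2855), Mcm4 (0.9127 and -0.0813) and Ccnb1 (0.8036 and -0.2942) had the same directions, as did Lmnb1 (0.8337 and -0.2124) and Ets2 (0.9343 and -0.2343). Lower in the epithelium and higher in Myc-CaP were the stress response genes Chac1 (-1.0192 and 0.7848) and Asns (-0.8977 and 0.2807), with Glb1 (-0.5178 and 0.1925), Cxcl5 (-0.5716 and 0.3505) and Foxo4 (-0.2125 and 0.1319). Chac1, Asns and Ccnb1 passed the test in both tables, by limma with adjusted p of 0.00601, 0.0408 and 0.0404 in Myc-CaP.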

How the results depend on the processing

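Cdkn1a, Cdkn2a, Cdkn2b, Mdm2 and Ccng1 kept their call in the epithelium in all 15 alternatives. The 9294 genes called there became 5872 at a minimum mean of 5, where fewer genes were tested, and 7768 to 8819 without 1 library, while 5 of the 9 genes were called whichever library was left out. With the same sum in every library 8 were called, and Cdkn2c turned to 0.12. It also turned without labelled A or control B, with a range of -0.070 to 0.017 without 1 library. In Myc-CaP the 899 genes called became 358 without a filter, 451 without a trend and 47 to 76 without 1 library, and 0 of the 9 genes were called in each of these. Uncalled changes near 0 turned there too, Cdkn1a to 0.0015 with quantile normalization. Without 1 library, Cdkn1a ran from -0.13 to 0.13 (turned without knockout 2 or EV 1), Mdm2 from -0.15 to 0.0053 (without knockout 1) and Ccng1 from -0.10 to 0.25 (without knockout 2 or EV 1). A replicate block on the numbers of the Myc-CaP titles gave 2771 calls, 2 of them among the 9 genes, Cdkn2a (adjusted p = 0.0369) and Trp53 (adjusted p = 0.0302), with libraries of the same number correlated at r = 0.195 over only 2 pairs, too few to treat the numbers as pairs. With that block 9 of 16 proliferation genes and 3 of 6 senescence markers were lower in Myc-CaP, against 2 and 0, and Mki67 and Lmnb1 were among the genes then called. In the epithelium the block changed no call of the 9 genes. The cause of these differences was not tested. Of the calls of list genes named by size of change, 32 of 40 in the epithelium and 1 of 13 in Myc-CaP held in every alternative. TPM already has 1 sum, so that rescaling was not run. Gdf15 was too low to be tested in Myc-CaP, where depth is unknown.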
